A study of Homo sapiens with 8 samples.

Results

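The genes described here are 6 subunits of the integrin receptors that bind collagen, fibronectin and laminin, the beta 4 subunit of hemidesmosomes, and 2 chains of the secreted protein laminin-332. They were selected by gene symbol, with earlier results of these data known. The genes are ITGA2, ITGA3, ITGA5, ITGA6, ITGAV, ITGB1, ITGB4, LAMA3 and LAMB3, which are 9 of the 62649 genes listed. RNA was sequenced in AsPC-1 and PANC-1 cells, both established human pancreatic cancer lines of wild-type genotype per the labels, so each model is 1 line. All cells were grown for 3 days as spheroids in medium containing methylcellulose. The 4 groups of each line then received 24 h of vehicle, 10 µM roseoflavin (a riboflavin analogue), 1 nM trametinib (an inhibitor of the MEK kinases), or 10 µM roseoflavin together with 1 nM trametinib. Each group was 1 library, so the 4 libraries of a line under different treatments stood in for replicates. Nothing in the labels says whether they came from separate cultures, and p-values measure only the spread between these libraries.

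Integrins are surface receptors made of 1 alpha and 1 beta chain. The pairing sets the ligand: ITGB1 with ITGA2 binds collagen, with ITGA5 fibronectin, and with ITGA3 or ITGA6 laminin, while ITGAV pairs with several beta chains and binds vitronectin, fibronectin and latent TGF-beta. ITGB4 pairs only with ITGA6, and this receptor anchors keratin filaments to the basement membrane in hemidesmosomes. Its ligand is laminin-332, a cross-shaped trimer that contains the LAMA3 and LAMB3 chains, which epithelial cells deposit beneath themselves and which pancreatic carcinomas are known to produce. RNA levels say nothing of which chains were paired at the cell surface.

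Levels are in TPM, transcript abundances that are adjusted for gene length and sum to 1000000 in each library, so they carry no sequencing depth and counting error is unknown. Genes of the mitochondrial genome took 41.2% to 44.1% of the total in AsPC-1 versus 22.8% to 25.6% in PANC-1. Genes at 1 TPM or more numbered 15280 to 15580 in AsPC-1 versus 17105 to 17201 in PANC-1. Of 8 epithelial markers 7 passed the filter of 1 TPM in 2 libraries and all 7 fell in PANC-1 against AsPC-1, among them EPCAM, an epithelial adhesion protein, from a mean of 1357 to 15.9 TPM, and CDH1, epithelial cadherin, from 66.4 to 5.75 TPM. Of 5 mesenchymal markers tested 4 rose, among them VIM, an intermediate filament protein, from 743.3 to 3270 TPM, and SPARC, a secreted matrix protein, from at most 0.047 TPM to between 481.8 and 575.0 TPM, while SNAI2, a transcription factor, fell from 14.97 to 0.328 TPM. Of these markers, 2 of the 7 epithelial and 3 of the 5 mesenchymal ones reached 1 TPM in 1 line only and so had to differ. Over all genes tested, 62.3% rose and 21.5% fell in PANC-1 against AsPC-1, and the marker counts are to be read beside these shares. Of 7 blood and endothelial markers, CD14 was at 3.30 to 4.10 TPM in AsPC-1 versus 0.473 to 1.62 TPM in PANC-1, and the other 6 were at or below 0.082 TPM in every library, with CD3E at 0 throughout.

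The 2 lines expressed these genes at different levels. AsPC-1 had high ITGB4 and LAMA3 and LAMB3 transcripts, whereas PANC-1 had high ITGA3, ITGAV and ITGA5 and almost no LAMA3 or LAMB3. All 9 genes differed between the lines in a linear model (limma) on log2(TPM + 1) with Benjamini-Hochberg adjustment over 19122 genes: 5 rose and 4 fell in PANC-1 against AsPC-1. Of the 5, ITGA2 and ITGB1 did not keep their direction when the libraries were rescaled, as described below. The background is high, since 62.3% of the genes tested rose and 21.5% fell in this comparison. These shares also changed with the scaling. In all 9 the levels of the lines did not overlap, and this held for 79.2% of the genes tested. LAMA3 passed the filter only through its AsPC-1 libraries and therefore had to differ. In these bulk samples, fewer cells expressing a gene and less RNA per cell cannot be told apart.

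The promoters of the genes whose levels lay farthest apart between the lines are shown because LAMA3 and LAMB3 were both near 0 in PANC-1 while ITGA5 was near 1 TPM in AsPC-1. Each runs 5′ to 3′ from 250 bases before to 50 bases after a RefSeq start site on GRCh38.p14. Capitals mark matches to TGANTCA, the recognition motif of AP-1, a transcription factor dimer that acts downstream of MAPK signalling. LAMA3 is on the plus strand at chr18:23872770-23873069. Its start site there, at 23873020, lies inside the gene, whose annotated upstream end is at 23689443. No promoter at that upstream end was in the table. LAMB3 is on the minus strand and has 3 start sites in the table. The most upstream, inside chr1:209652376-209652675, and the most downstream, inside chr1:209651325-209651624, are shown. ITGA5 is on the minus strand at chr12:54419217-54419516.
LAMA3: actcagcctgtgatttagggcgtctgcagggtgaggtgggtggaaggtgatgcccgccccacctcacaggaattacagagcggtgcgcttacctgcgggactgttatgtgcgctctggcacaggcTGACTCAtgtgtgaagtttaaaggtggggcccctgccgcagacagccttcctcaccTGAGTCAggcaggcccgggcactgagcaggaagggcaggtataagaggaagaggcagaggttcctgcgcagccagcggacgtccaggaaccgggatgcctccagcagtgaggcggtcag
LAMB3, upstream start: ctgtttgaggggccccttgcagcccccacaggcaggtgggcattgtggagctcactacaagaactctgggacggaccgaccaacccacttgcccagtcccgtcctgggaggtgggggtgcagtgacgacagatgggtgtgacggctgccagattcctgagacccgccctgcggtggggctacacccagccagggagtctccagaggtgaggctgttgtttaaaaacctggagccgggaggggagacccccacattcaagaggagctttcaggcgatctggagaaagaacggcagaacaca
LAMB3, downstream start: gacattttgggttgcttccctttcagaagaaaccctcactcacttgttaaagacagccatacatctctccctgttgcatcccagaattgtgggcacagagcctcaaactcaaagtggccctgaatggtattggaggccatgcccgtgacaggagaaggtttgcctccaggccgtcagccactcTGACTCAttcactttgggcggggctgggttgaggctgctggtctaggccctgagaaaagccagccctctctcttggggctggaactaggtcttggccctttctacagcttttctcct
ITGA5: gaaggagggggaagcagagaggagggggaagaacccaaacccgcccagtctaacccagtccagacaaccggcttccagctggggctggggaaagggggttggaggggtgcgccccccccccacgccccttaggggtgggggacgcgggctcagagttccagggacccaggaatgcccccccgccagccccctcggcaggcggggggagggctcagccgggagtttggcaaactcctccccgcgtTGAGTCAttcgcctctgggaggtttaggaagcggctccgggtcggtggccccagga

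Of the 9 genes, 7 were matched in the promoter table, with 12 start sites between them. On either strand, the AP-1 letters occurred in 3 of the 12 promoters, 1 each of LAMA3, LAMB3 and ITGA5, and 7.71% of all 35116 promoters in the table held them. In the LAMA3 promoter they began 125 and 69 bases before the start site. The LAMB3 promoter at the downstream start held them 67 bases before the start, and the promoters at the other 2 LAMB3 starts held none. ITGA5 held them 6 bases before its start. The letters CACCTG, an E-box bound by the SNAI and ZEB repressors, were found in 3 of the 12 promoters against 20.6% of all promoters. In LAMA3 this match began 73 bases before the start and shares bases with the nearer AP-1 match, and in LAMB3 it lay 218 bases before the upstream start. ITGA6, which was not near 0 in either line, held it 136 and 46 bases before its start at 172427336. GGGCGG, the GC box, was found in 9 of the 12 promoters against 45% of all promoters. A match to these letters is a description of the sequence, and TPM per gene do not tell which start was used.

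The laminin-332 chains LAMA3 and LAMB3 showed the largest contrasts between the lines. In the order vehicle, roseoflavin, trametinib and both compounds, which is kept throughout, LAMA3 was at 27.6, 27.9, 29.5 and 30.0 TPM in AsPC-1 versus 0.231, 0.272, 0.337 and 0.215 TPM in PANC-1. LAMA3 encodes the alpha 3 chain, whose globular end is bound by integrins. LAMB3, the beta 3 chain, was at 119.6, 117.3, 123.3 and 110.5 TPM in AsPC-1 versus 1.68, 1.69, 1.45 and 1.72 TPM in PANC-1. Mean levels in AsPC-1 were 109 times those in PANC-1 for LAMA3 and 71.9 times for LAMB3. On the log2(TPM + 1) scale, which understates the change of low genes, the difference for LAMA3 was -4.56, given with no test because the filter fixed it, and LAMB3 fell by 5.49 (SE 0.0556, limma adjusted p = 2.85e-09). In PANC-1 the means were 1.64 ± 0.124 TPM for LAMB3 and 0.264 ± 0.0544 TPM for LAMA3 (SD, n = 4 each), and in AsPC-1 117.7 ± 5.4 TPM and 28.75 ± 1.16 TPM.

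**Figure D1:**
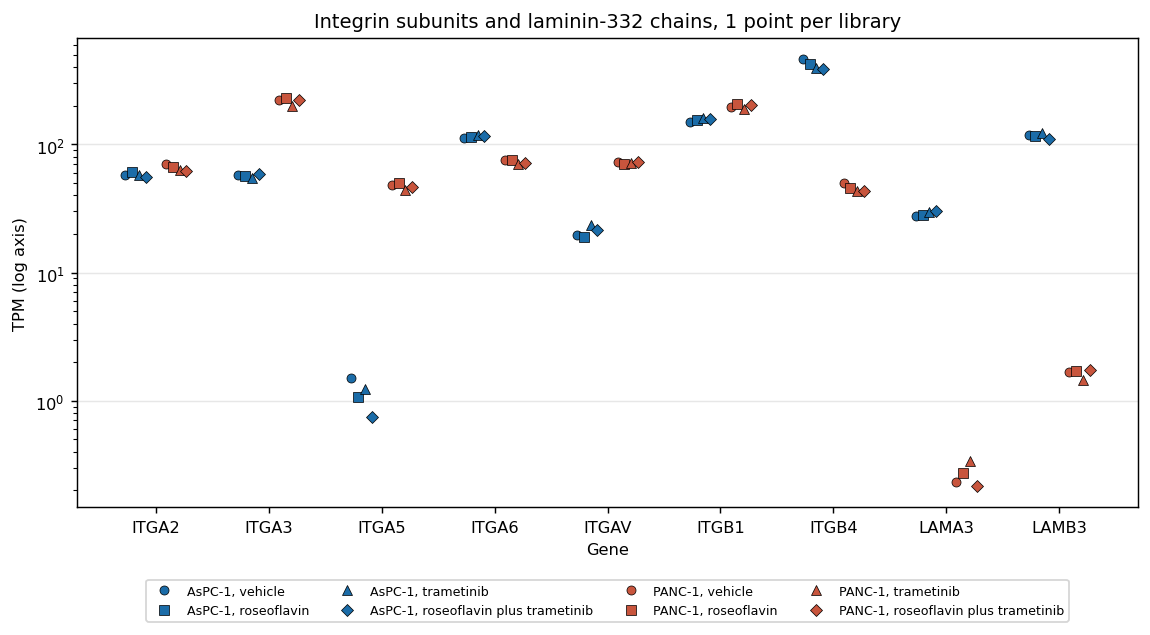
TPM (log axis) of the 9 genes in each of the 8 libraries, with 1 point per library, colour for the line and marker shape for the treatment. The points of a line cluster under all 4 treatments, and the lines stand farthest apart for LAMA3 (a mean of 28.8 TPM in AsPC-1 versus 0.264 TPM in PANC-1), LAMB3 and ITGA5.

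ITGB4, which has a long cytoplasmic tail that binds plectin, was the most abundant of the 9 in AsPC-1 at 463.1, 423.5, 398.9 and 384.9 TPM, against 50.1, 45.7, 43.1 and 43.5 TPM in PANC-1. Every AsPC-1 library was above every PANC-1 library, with a ratio of means of 9.16, and ITGB4 fell by 3.17 on the log2 scale in PANC-1 (SE 0.0374, adjusted p = 4.86e-09). Its partner ITGA6 differed much less, at 111.6, 114.4, 118.6 and 117.1 TPM in AsPC-1 versus 75.9, 75.9, 69.9 and 71.3 TPM in PANC-1. ITGA6 fell by 0.65 in PANC-1 (SE 0.044, adjusted p = 1.06e-05), a ratio of means of 1.58.

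In TPM, ITGB4 therefore exceeded ITGA6 in AsPC-1 and was below it in PANC-1. Which gene is the higher depends on the gene lengths used, which are not given, whereas the contrast of their ratio between the lines does not. The ratio of ITGB4 to ITGA6 transcripts was 4.15, 3.7, 3.36 and 3.29 in AsPC-1 versus 0.661, 0.602, 0.616 and 0.61 in PANC-1. This difference had p = 0.0286 in an exact two-sided permutation test of 4 libraries against 4, the smallest p this design allows, and 0.0381 after adjustment over the 8 ratios computed.

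**Figure D2:**
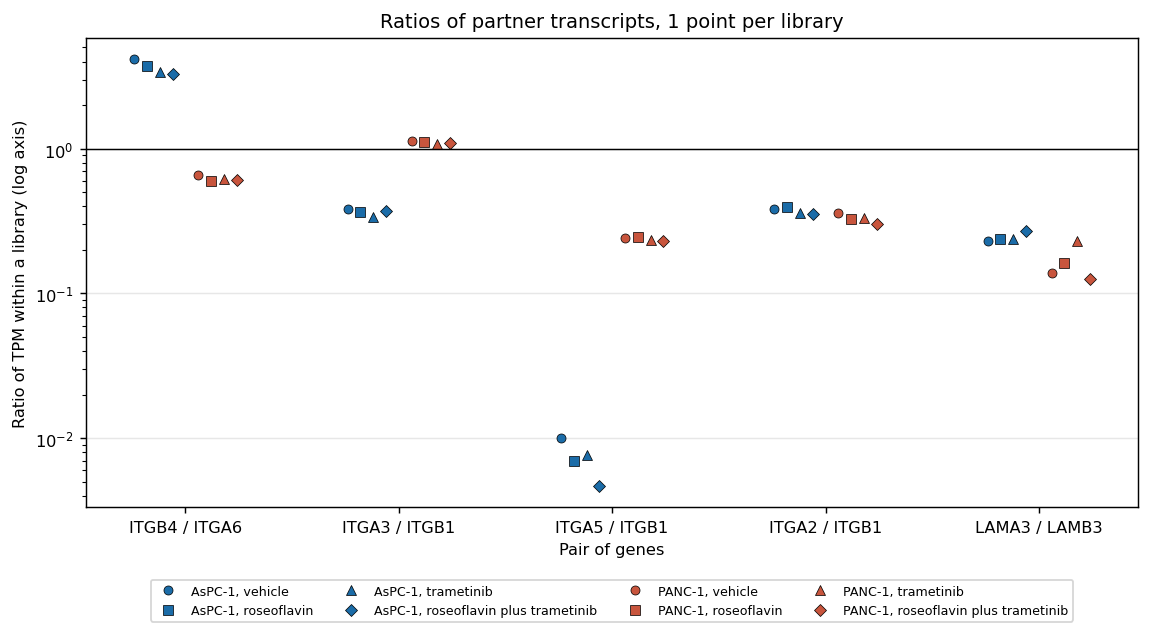
Ratios of TPM between transcripts whose proteins pair or assemble (log axis), with 1 point per library and colour for the line and marker shape for the treatment. ITGB4 over ITGA6 is above 1 in the 4 AsPC-1 libraries and below 1 in the 4 PANC-1 libraries, and ITGA3 over ITGB1 is below 1 in the former and above 1 in the latter. The position relative to 1 depends on the gene lengths used, which are not given.

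The fibronectin receptor chain ITGA5 showed the reverse pattern. It was at 1.499, 1.08, 1.24 and 0.740 TPM in AsPC-1 versus 48.1, 50.2, 44.0 and 46.7 TPM in PANC-1, a ratio of means of 41.5 with no overlap. The rise in PANC-1 was 4.51 on the log2 scale (SE 0.0888, adjusted p = 3.57e-08). Beta 1, the common partner of ITGA2, ITGA3, ITGA5 and ITGA6, was far more even: ITGB1 was at 149.2, 154.2, 161.7 and 158.7 TPM in AsPC-1 versus 197.9, 206.1, 188.7 and 204.1 TPM in PANC-1. The ITGB1 libraries did not overlap, and the difference was 0.35 (SE 0.0415, adjusted p = 0.000199). Relative to ITGB1, ITGA5 was 0.00734 ± 0.0022 in AsPC-1 versus 0.237 ± 0.0075 in PANC-1 (SD, n = 4 each, exact permutation p = 0.0286, adjusted 0.0381).

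ITGA3, a receptor chain for laminin-332 and laminin-511, was at 57.3, 56.8, 54.4 and 58.7 TPM in AsPC-1 versus 222.9, 228.6, 201.2 and 221.6 TPM in PANC-1. PANC-1, the line with the lower LAMA3 and LAMB3, thus had the higher level of this laminin receptor chain, by 1.92 on the log2 scale (SE 0.0402, adjusted p = 4.58e-08). ITGAV was at 19.7, 18.9, 23.7 and 21.6 TPM in AsPC-1 versus 72.5, 70.6, 71.4 and 73.4 TPM in PANC-1. It rose by 1.74 (SE 0.0555, adjusted p = 2.85e-07), and every PANC-1 library was above every AsPC-1 library. As a ratio to ITGB1, ITGA3 was 0.365 ± 0.02 in AsPC-1 versus 1.1 ± 0.027 in PANC-1 (SD, n = 4 each, exact permutation p = 0.0286, adjusted 0.0381). The collagen receptor chain ITGA2 differed least, at 57.2, 60.7, 58.1 and 56.0 TPM in AsPC-1 versus 70.6, 66.9, 62.8 and 61.8 TPM in PANC-1. Its difference of 0.17 had a 95% confidence interval of 0.07 to 0.27 (adjusted p = 0.0076), and the highest AsPC-1 library lay close below the lowest PANC-1 library. Its ratio to ITGB1, 0.372 ± 0.019 versus 0.329 ± 0.022, and the ratio of LAMA3 to LAMB3, 0.245 ± 0.018 versus 0.164 ± 0.048, were the 2 of the 8 ratios above the smallest possible p (SD, n = 4 each, exact permutation p = 0.0571 for both, adjusted 0.0571).

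The direction for ITGA2 and ITGB1 depended on how the libraries were scaled. Over all genes tested the median difference between the lines was 0.55, and it became 0.23 when mitochondrial genes were left out and TPM rescaled, and 0.04 after quantile normalization. Relative to that median of 0.55, ITGA2 was at -0.38 and ITGB1 at -0.20, while ITGA3 was at 1.37, ITGAV at 1.18, ITGA5 at 3.95, ITGA6 at -1.20, ITGB4 at -3.72, LAMA3 at -5.11 and LAMB3 at -6.05. ITGA2 turned to -0.27 under both scalings and was then called lower in PANC-1. ITGB1 turned to -0.00372 after quantile normalization (adjusted p = 0.942) and to -0.07 without mitochondrial genes (adjusted p = 0.152), and was called in neither. The other 7 genes kept their direction and their call under each of 14 alternatives. LAMA3 is among them, and since the filter fixed its difference, its calls are no support. Over all genes, 11917 rose and 4110 fell as reported, 7963 rose and 7177 fell after quantile normalization, and 9471 rose and 6067 fell without mitochondrial genes. The mitochondrial share moved with the line, and its part in these differences beyond that rescaling was not tested.

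**Figure D3:**
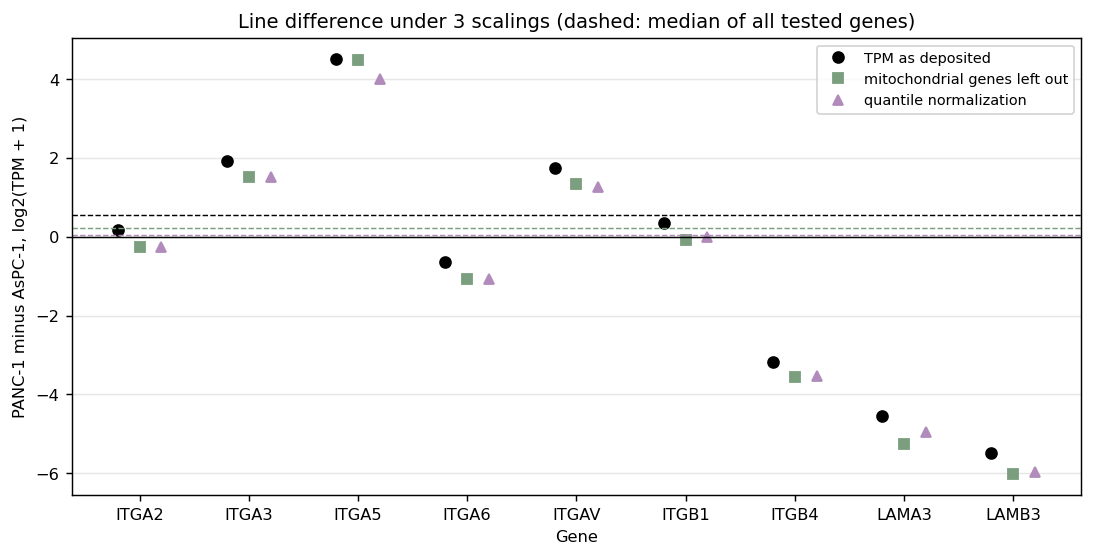
Difference between the lines (PANC-1 minus AsPC-1, log2(TPM + 1) scale) for the 9 genes under 3 scalings of the libraries (marker shape and colour), with the median of all genes tested under each scaling as a dashed line. ITGA2 and ITGB1 lie near 0 and change side with the scaling, while ITGA5 at 4.51 and LAMB3 at -5.49 keep theirs.

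Within AsPC-1 the order of mean levels was ITGB4, ITGB1, LAMB3, ITGA6, ITGA2, ITGA3, LAMA3, ITGAV and ITGA5. The libraries of LAMB3 and ITGA6 overlapped, as did those of ITGA2 and ITGA3. PANC-1 had the order ITGA3, ITGB1, ITGA6, ITGAV, ITGA2, ITGA5, ITGB4, LAMB3 and LAMA3, with overlap between ITGA3 and ITGB1, ITGA6 and ITGAV, ITGAV and ITGA2, and ITGA5 and ITGB4. ITGB4 and LAMB3, which were among the 3 highest in AsPC-1, were thus among the 3 lowest in PANC-1. These orders also depend on the gene lengths used.

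The share of each chain in its family does not depend on the total of the library, but it does depend on the other chains in the sum. In vehicle, the 18 alpha subunits summed to 255.2 TPM in AsPC-1 versus 505.7 TPM in PANC-1. ITGA6 took 43.7% of that sum in AsPC-1 versus 15% in PANC-1, whereas ITGA3 took 22.5% and 44.1%. ITGA5 took 0.587% and 9.52%, and ITGAV 7.72% and 14.3%. ITGA2 took 22.4% and 14%, the reverse of its direction in TPM. Since the subunits differ in how they pair, these are shares of transcripts and not of receptors. The 8 beta subunits summed to 721.5 TPM in AsPC-1 versus 424.3 TPM in PANC-1 in vehicle. ITGB4 took 64.2% of that sum in AsPC-1 versus 11.8% in PANC-1, ITGB1 20.7% and 46.6%, and ITGB5, a partner of ITGAV, 8.03% and 37.6%.

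Among the 11 laminin chains analysed here, LAMB3 held 34.1% and LAMA3 7.87% of the summed TPM in AsPC-1 vehicle, against 0.458% and 0.0631% in PANC-1 vehicle. The sums over these 11 chains, which are not all laminin chains, were close, at 350.8 and 366 TPM. PANC-1 transcripts were mostly of LAMA5 (30.9%), LAMC1 (28%) and LAMB2 (26.3%), chains of laminin-511 and laminin-521, which in AsPC-1 stood at 23.5%, 7.64% and 19.8%.

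**Figure D4:**
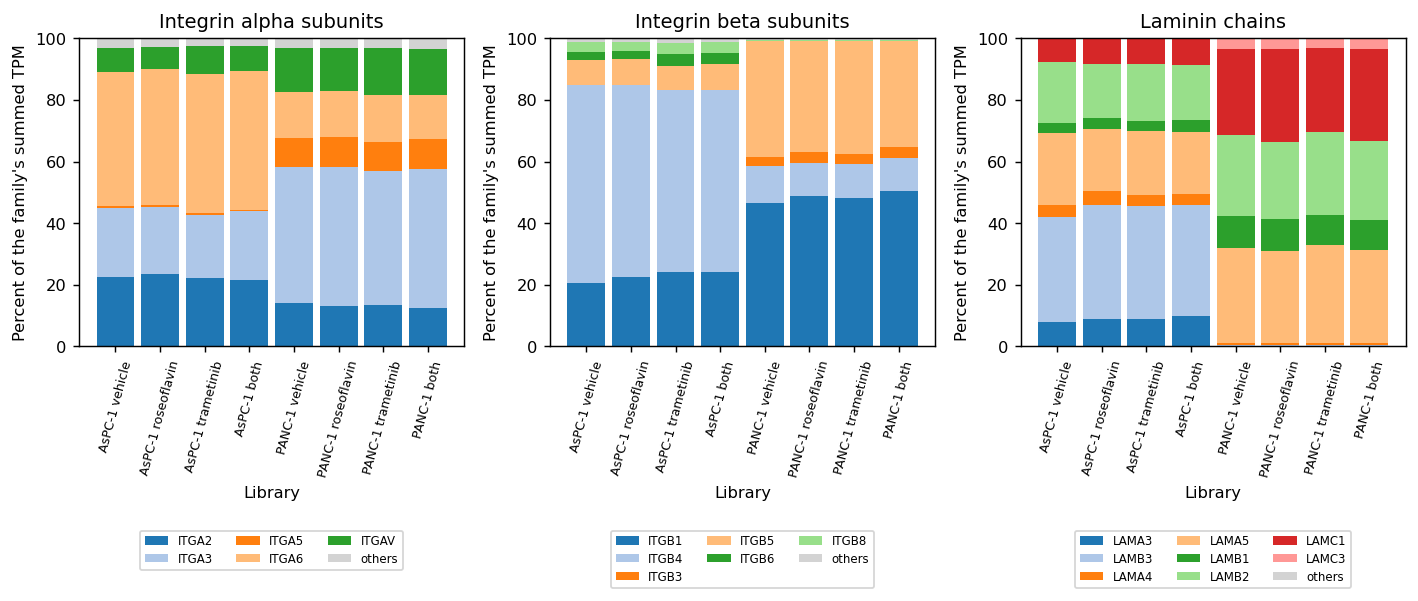
Share of the summed TPM of alpha subunits, beta subunits and laminin chains held by each chain in each of the 8 libraries (stacked bars, percent). ITGB4 fills 58.9% to 64.2% of the beta subunits in AsPC-1 versus 10.7% to 11.8% in PANC-1, and LAMB3 34.1% to 37.2% and 0.388% to 0.471% of the 11 laminin chains.

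Other genes of the pathway came from lists chosen by function, also with earlier results of these data known. Their counts are to be read beside the 62.3% of all genes that rose and the 21.5% that fell. Genes that reached 1 TPM in 1 line only passed the filter through that line and had to differ, as LAMA3 did. Of 10 other integrin subunits tested 6 rose and 4 fell in PANC-1, but 6 of the 10, among them ITGB6, ITGB3 and ITGA10, had reached 1 TPM in 1 line only. ITGAV can pair with several of them: ITGB6, a receptor chain for latent TGF-beta, fell from a mean of 21.5 to 0.0542 TPM and ITGB8 from 22.5 to 1.44 TPM, whereas ITGB3, a vitronectin receptor chain, rose from at most 0.029 TPM to a mean of 13.8 TPM. ITGA10, a collagen receptor chain, rose from 0.456 to 5.79 TPM. Of 6 other laminin chains tested 5 rose and 1 fell, with LAMC3 at 1 TPM in 1 line only. LAMA4, an alpha chain of vessel and muscle laminins, fell from 12.7 to 2.23 TPM, while LAMC1 rose from 27.0 to 106.8 TPM and LAMB1 from 11.4 to 37.2 TPM. LAMC3 was listed at 0 in AsPC-1 and averaged 12.6 TPM in PANC-1.

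Of 13 hemidesmosome and laminin-binding partners 7 rose and 4 fell, with COL17A1 at 1 TPM in 1 line only. COL17A1, the transmembrane collagen of hemidesmosomes, fell from 448.6 to 0.127 TPM, the same direction as ITGB4. Other hemidesmosome components, named after their values were seen, rose: PLEC, plectin, from 136.8 to 202.1 TPM, DST, dystonin, from 7.86 to 19.0 TPM and the tetraspanin CD151 from 146.7 to 330.2 TPM. PLEC was not called without mitochondrial genes (0.187, limma adjusted p = 0.141). BCAM, a receptor for laminin alpha 5, rose from 1.41 to 121.8 TPM, and COL7A1, the collagen of anchoring fibrils, rose from 1.74 to 48.0 TPM. The tetraspanin CD81 rose from 19.4 to 117.5 TPM. Of 27 integrin activators and focal adhesion proteins 20 rose and 5 fell, and 3 of them, including FERMT2 and TNS4, reached 1 TPM in 1 line only. The kindlins, which activate integrins through the beta tail, went in opposite directions: FERMT1 fell from 68.5 to 1.13 TPM, while FERMT2 was listed at 0 in AsPC-1 and averaged 15.8 TPM in PANC-1. FLNA, an actin crosslinker that binds beta tails, rose from 40.5 to 453.4 TPM, and TNS4, a tensin, fell from 18.9 to 0.253 TPM. Of 9 other integrin ligands tested 7 rose and 2 fell, the latter being NPNT and TNC, which reached 1 TPM in AsPC-1 only. MFGE8, a ligand of ITGAV receptors, rose from 2.24 to 220.9 TPM and CCN1 from 26.6 to 209.5 TPM, whereas NPNT, nephronectin, fell from 224.7 TPM to at most 0.018 TPM and TNC, tenascin C, from 10.6 to 0.735 TPM.

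With roseoflavin, differences in these genes were small. The main effect compared the 4 libraries with roseoflavin to the 4 without, with line and trametinib as terms in the limma model. None of the 9 was called, 0% of all genes were called, and none of the 9 had an unadjusted p under 0.05, against 1358 of the 19122 genes. Estimates for the 9 ran from -0.12 (ITGA5, 95% confidence interval -0.34 to 0.09) to 0.07 (ITGA3, -0.03 to 0.16) on the log2 scale. ITGB4 was at -0.07 (-0.16 to 0.02, adjusted p = 0.736). The median of the 9 was -0.01 beside -0.02 for all genes. Of the 4 matched comparisons, which are each line without and with trametinib, no member was lower in all 4 (10.2% of all genes were) and none was higher in all 4 (4.91% of all genes were). The adjusted p of the members stayed between 0.568 and 1 over the alternatives.

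Trametinib also gave no called member and no called gene (0%), and 938 of the 19122 genes had an unadjusted p under 0.05. Among the 9, ITGB4 alone did, at -0.16 (SE 0.0374, 95% confidence interval -0.25 to -0.07, limma adjusted p = 0.861). ITGB4 was lower with trametinib in all 4 matched comparisons: against vehicle its TPM differed by -13.9% in AsPC-1 and by -14.1% in PANC-1, and in the presence of roseoflavin by -9.1% and -4.86%. Its estimate was between -0.19 and -0.14 over the alternatives, with an adjusted p of 0.667 to 1. ITGA5 was lower in all 4 as well, at -0.16 with a wide interval of -0.38 to 0.05. These 2 of 9 compare with 4.54% of all genes lower in all 4, and 0 of 9 with 9.66% higher in all 4. ITGAV was at 0.12 (-0.02 to 0.25, higher in 3 of 4) and ITGA2 at -0.09 (-0.20 to 0.01, lower in 3 of 4). The median of the 9 was -0.04 beside 0.02 for all genes.

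**Figure D5:**
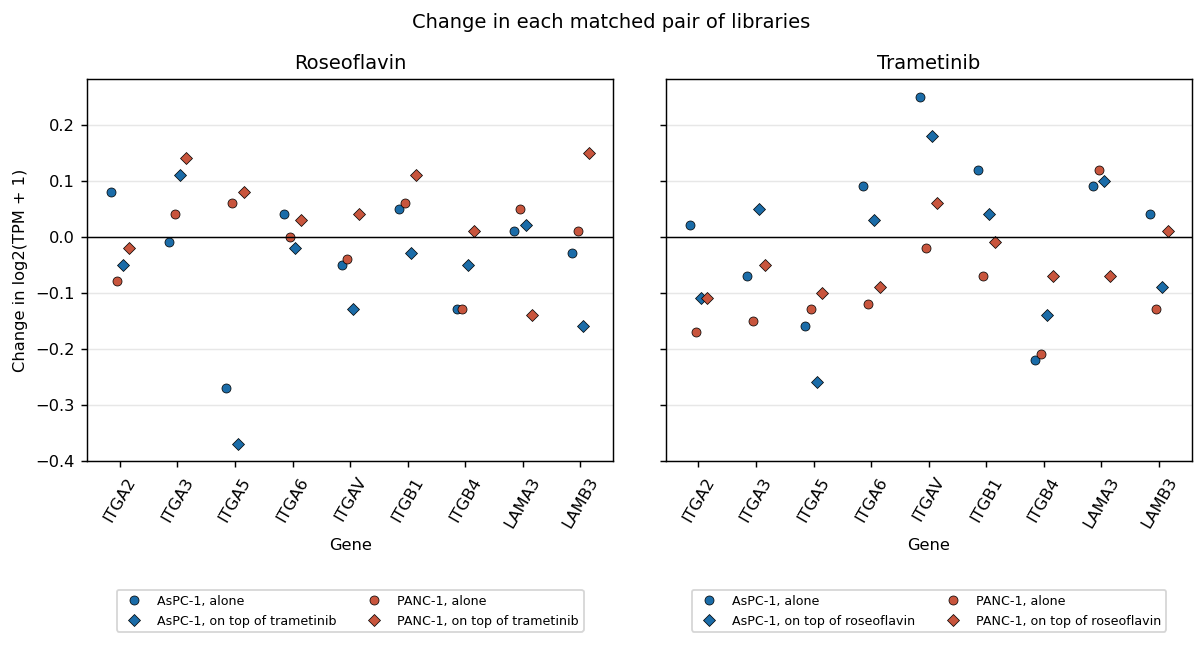
Change of the 9 genes on the log2(TPM + 1) scale in each matched comparison of 1 library with 1, with a panel for each compound, colour for the line and marker shape for the absence or presence of the other compound; no single point has a replicate check. The points lie between -0.37 and 0.25, with ITGB4 below 0 in the 4 trametinib comparisons and ITGA5 lowest with roseoflavin in AsPC-1.

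Whether the lines responded differently was tested as an interaction. For roseoflavin, 5 genes (0.0261%) were called and no member among them, while 1907 genes had an unadjusted p under 0.05. ITGA5 was the only member below that p, at 0.39 (SE 0.0892, 95% confidence interval 0.16 to 0.61, adjusted p = 0.348 by limma, and 0.251 to 0.772 over the alternatives). Its changes with roseoflavin were -0.27 and -0.37 in AsPC-1, where it stood near 1 TPM, and 0.06 and 0.08 in PANC-1. For trametinib no gene was called (0%), with 1392 at an unadjusted p under 0.05. The estimate for ITGA6, the only member with an unadjusted p under 0.05, was -0.16 (-0.32 to -0.01, limma adjusted p = 0.671), from changes of 0.09 and 0.03 in AsPC-1 versus -0.12 and -0.09 in PANC-1. Over the members, the median change with trametinib alone was 0.04 in AsPC-1 (0.00 for all genes) and -0.13 in PANC-1 (0.01), and in the presence of roseoflavin 0.03 (0.04) and -0.07 (0.01).

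Departure of the combination from the sum of the compounds was called for no gene (0%, with 536 at an unadjusted p under 0.05), and no member had an unadjusted p under 0.05. In the pathway lists no gene was called for either compound or any interaction.

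Spread over the 4 treatments differed among the members. The coefficient of variation in AsPC-1 was 2.69% for ITGA6, 3.14% for ITGA3, 3.41% for ITGA2, 3.49% for ITGB1, 4.04% for LAMA3 and 4.59% for LAMB3, and higher for ITGB4 at 8.21%, ITGAV at 10.1% and ITGA5 at 27.9%. Over the 7999 genes whose AsPC-1 mean reached 10 TPM, the median was 6.69%. ITGA5, with a mean of 1.14 TPM, was outside that set. In PANC-1 the coefficient was 1.73% for ITGAV, 3.92% for ITGB1 and 4.24% for ITGA6. These were below the median of 4.79% over the 9717 genes whose PANC-1 mean reached 10 TPM. The other members were above that median, with ITGA3 at 5.48%, ITGA5 at 5.54%, ITGA2 at 6.19%, ITGB4 at 7.11%, LAMB3 at 7.61% and LAMA3 at 20.6%. LAMB3, with a mean of 1.64 TPM, and LAMA3, near 0, were outside the set behind the median. ITGAV was thus among the more variable members in AsPC-1 and the least variable in PANC-1.

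Which genes followed each member across treatments was described by the correlation of values centred within each line, over 8 libraries that share normalization and treatments. Among the 8629 named genes whose mean reached 10 TPM, the highest was C1orf115 for ITGAV (r = 0.996), IFNGR2 for LAMB3 (0.990), MRPS6 for ITGA5 (0.988), UBAP1 for ITGB1 (0.988), SNORD30 for ITGB4 (0.982), LEO1 for ITGA6 (0.975), ACAT1 for LAMA3 (0.960), TPST1 for ITGA3 (0.956) and C11orf58 for ITGA2 (0.937). Each is the highest of 8629 values over 8 points and is given as a description. Centring within each line leaves fewer free values than 8. The share of these genes with r above 0.9 ran from 0.0464% for ITGA2 to 3.87% for ITGAV. Between members, the highest was ITGA5 and LAMB3 at 0.74, while ITGA6 and ITGB1 had 0.71, ITGA5 and ITGB4 0.71, and ITGB4 and LAMA3 -0.69.

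On GRCh38 (GENCODE release 29), ITGA3 lies on chromosome 17 at 50055968-50090481 and ITGB4 on the same chromosome at 75721328-75757818, both on the plus strand. ITGA6 (172427354-172506282) and ITGAV (186590065-186680901) are both on the plus strand of chromosome 2. ITGA2 is on chromosome 5 at 52989326-53094779 (plus), ITGA5 on chromosome 12 at 54395261-54419460 (minus), ITGB1 on chromosome 10 at 32900319-33005792 (minus), LAMA3 on chromosome 18 at 23689443-23956222 (plus), and LAMB3 on chromosome 1 at 209614870-209652466 (minus). The strand setting of the counting and its handling of shared reads are not given in the sources used here, so genes that overlap a member are uncertain. MIR4260, a microRNA gene of 67 bases inside LAMB3 on the same strand, was listed at 305.3 to 364.8 TPM in AsPC-1 versus 1.66 to 11.1 TPM in PANC-1, and reads of LAMB3 cannot be told apart from its own. ITGB1P1, a processed pseudogene of ITGB1, was at 22.9 to 24.4 TPM in AsPC-1 versus 22.6 to 31.97 TPM in PANC-1. GALK1, which overlaps ITGB4 on the other strand, was at 19.3 to 24.3 TPM over the 8 libraries.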

How the data were processed

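RNA was measured in 8 libraries, 1 per treatment in each of the AsPC-1 and PANC-1 lines. The authors deposited TPM per gene, per the file headers, and the submitters' processing notes name STAR 2.7.3a, HTSeq 2.0.2 and hg38. The annotation and gene lengths behind the TPM are not given in the sources used here. Libraries were made with a stranded kit for polyadenylated RNA, per the labels' protocols. Of the rows, 62649 held a gene identifier (41719 with a name) and 985926 blank rows were dropped. Because the values are TPM, depth is unknown and no count test was used.

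Values were analysed as log2(TPM + 1) for the 19122 genes that reached 1 TPM in 2 libraries, and all 9 members passed. Models were fitted over all genes in limma 3.58.1 (R 4.3.3, eBayes with a trend) with line, roseoflavin and trametinib as additive terms, or 1 interaction added. Genes were called at a Benjamini-Hochberg adjusted p-value under 0.05. The models were tested on simulated data with known changes and independent noise. Such data cannot show whether libraries under different treatments may stand in for replicates. Ratios of 4 against 4 libraries used exact permutation tests.

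The members and gene lists were chosen with earlier results of these data known. The genes named were the members, listed genes called for a compound or interaction, up to 4 genes per list with the largest line difference among those called whose mean reached 1 TPM, and the 1 gene most like each member. A further gene of this rule is not reported here. Alternatives were quantile normalization, mitochondrial genes left out, no filter, a mean of at least 10 TPM, a pseudocount of 0.1, no trend, no line term for the compounds, and leaving out each library in turn.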

Additional observations from a re-analysis of the deposited data

How the results depend on the processing

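The line difference was called for 8388 of 9368 genes at a mean of at least 10 TPM, where fewer genes were tested. For ITGA2 the line difference was -0.273 after quantile normalization and -0.269 without mitochondrial genes, and for ITGB1 -0.00372 and -0.0712. The other reversals among the results printed were of compound main effects that were never called. Interaction estimates of members not printed changed sign too, such as ITGA5 for line by trametinib, which ranged from -0.07 to 0.25. For roseoflavin, ITGA6 was at -0.04 without mitochondrial genes, LAMA3 at 0.0161 and LAMB3 at 0.0225 after quantile normalization, and LAMB3 at 0.0146 with a pseudocount of 0.1. Leaving out each library in turn for roseoflavin gave -0.0541 to 0.00884 for ITGA2, -0.0153 to 0.0392 for ITGA6, -0.0374 to 0.0262 for LAMA3 and -0.05 to 0.0357 for LAMB3. For trametinib, ITGB1 was at -0.0337 without mitochondrial genes, and leaving out each library gave -0.0147 to 0.0497 for ITGB1, -0.0491 to 0.00351 for ITGA6 and -0.081 to 0.00472 for LAMB3. The 5 genes called for line by roseoflavin became 0 after quantile normalization, 0 without mitochondrial genes, 0 without a filter, 8 with a pseudocount of 0.1, 10 without a trend, and 0 whichever library was left out. For line by trametinib the count of 0 became 2 without a filter, 4 with a pseudocount of 0.1 and 16 without a trend. The cause of these changes was not tested. No member was called for a compound or interaction in any of these alternatives. The libraries carry no replicate numbers, so matching was by line and treatment only. Without the line term, 56 genes for roseoflavin and 46 for trametinib had an unadjusted p under 0.05, and none was called by limma. With TPM alone, counting error could not be set beside low values such as LAMA3 in PANC-1.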
